A study of Saccharomyces cerevisiae BY4741 with 238 samples.

Results

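Mixtures of cycloheximide and rapamycin were followed along the ratio of the 2 doses in 19 cultures of the haploid Saccharomyces cerevisiae strain BY4741, out of 238 cultures in the series. The 19 are the wells labelled with this drug combination in which both doses were above 0, and no expression value entered the choice. Each culture was 1 well of a robot-made concentration grid in rich medium (YPD) at 30 °C, taken for RNA after 3 rounds of incubation and re-inoculation of about 8 hours each because it grew at close to 50% of the drug-free rate. The study exposed yeast to cycloheximide, rapamycin, lithium chloride (LiCl) and myriocin, an inhibitor of sphingolipid synthesis, alone and in pairs, and sequenced RNA fragments next to the poly(A) tail. The same experiment held 7 wells with cycloheximide alone (52.2 to 76.4 ng/ml, relative growth 0.465 to 0.626), 2 wells with rapamycin alone (5.83 ng/ml, relative growth 0.504 and 0.589) and 2 with no drug. For comparison, 18 wells held LiCl with rapamycin, 16 myriocin with rapamycin, 22 cycloheximide with LiCl and 20 cycloheximide with myriocin. All were the same strain in the same medium, and no 2 mixture wells had the same pair of doses. P-values therefore rest on the scatter of single wells around a fitted line, and the wells may share an inoculum.

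Cycloheximide binds the large ribosomal subunit and blocks the elongation of peptide chains. Rapamycin, bound to the prolyl isomerase Fpr1, inhibits TOR complex 1, the kinase that in rich nitrogen keeps ribosome synthesis on. The same kinase keeps off the nitrogen catabolite repression genes (permeases and enzymes for poor nitrogen sources, driven by Gln3 and Gat1) and the retrograde response genes (driven by Rtg1 and Rtg3, which supply precursors of glutamate).

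The dose ratio (cycloheximide over rapamycin) ran from 1.96 to 77.4, a span of 5.31 on the log2 scale, and the path of doses had a corner. The first 6 wells shared the highest rapamycin dose (6.62 ng/ml) while cycloheximide rose from 12.9 to 35.7 ng/ml; they are called the high-rapamycin wells here. The next 4 crossed from 40.5 ng/ml cycloheximide with 5.83 ng/ml rapamycin to 59.3 with 4.52. Of the last 9 wells, 8 shared 67.3 ng/ml cycloheximide while rapamycin fell from 3.98 to 0.870 ng/ml, here called the high-cycloheximide wells, and 1 held 76.4 with 2.72 ng/ml. Relative growth was 0.439 ± 0.0381 (SD, n = 19; range 0.361 to 0.519). It was 0.361 to 0.432 in the high-rapamycin wells and 0.419 to 0.487 in the high-cycloheximide wells, with little overlap. Depth, estimated from the spacing of the low values, was 483092 to 966617 reads per well. Final optical density was 0.464 to 0.5325 in the high-rapamycin wells and 0.6515 to 0.717 in the high-cycloheximide wells, with no overlap. Over the 19 wells the log2 ratio had a Pearson r of 0.468 with relative growth, 0.850 with final density and 0.996 with the library number, given as descriptions; library order and dose ratio cannot be told apart. Inside the high-rapamycin wells and inside the high-cycloheximide wells the r with final density was 0.0653 and 0.0689. In the high-rapamycin wells density rose from 0.481 to 0.5325 in the fourth well and fell to 0.464 in the sixth, a course that r does not show.

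**Figure D1:**
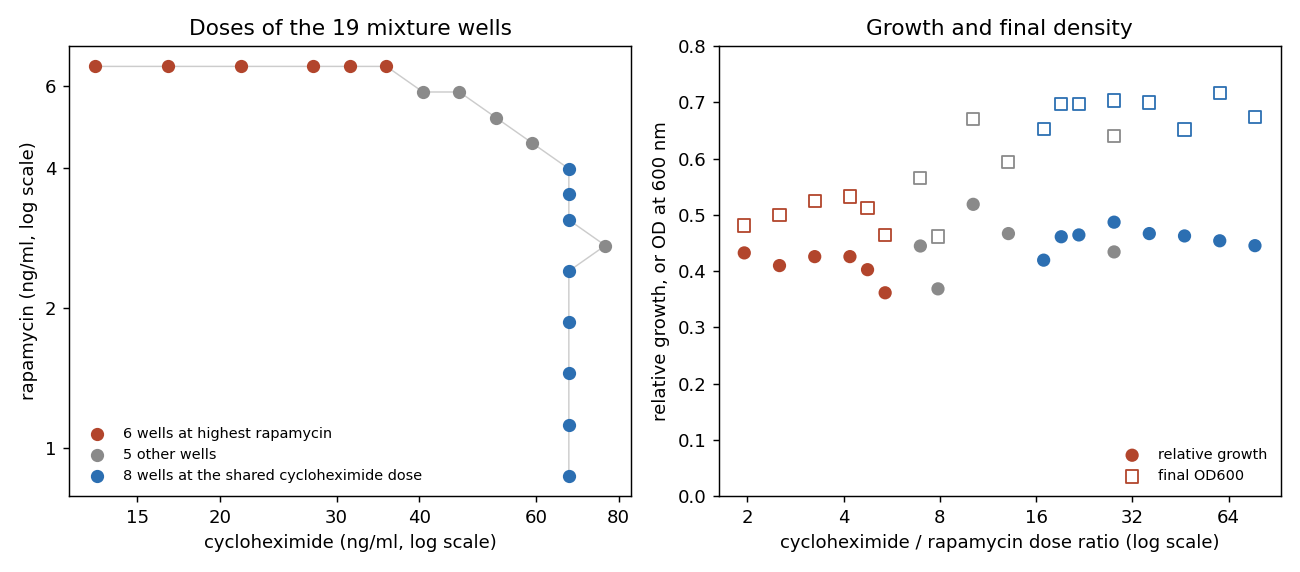
Left, cycloheximide against rapamycin dose of the 19 mixture wells (ng/ml). Right, relative growth and final optical density at 600 nm against the dose ratio: growth lay between 0.361 and 0.519, while the density of the 8 high-cycloheximide wells (blue) lay above that of the 6 high-rapamycin wells (red); the 5 other wells are grey.

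Of 5015 features that passed a filter on low values, 600 changed along the ratio with relative growth as a term in the fit (12%). A call needed a limma Benjamini-Hochberg adjusted p under 0.05 and at least 1.5-fold from end to end. Of the 600, 297 rose toward cycloheximide (5.92%) and 303 fell (6.04%). Each count of list members called along the ratio below is to be read against these 2 shares. The values are quantile-normalised counts, and each end-to-end change below is the fitted difference in log2(value + 1) from the lowest to the highest ratio, ± SE, positive where a gene was higher in the cycloheximide-rich mixtures. The genes that fell furthest served poor nitrogen, the retrograde response, the cell wall and iron retention. Those that rose furthest included genes of one-carbon metabolism, leucine synthesis, aromatic amino acid breakdown, phosphate uptake and ribosome assembly. Values of the high-rapamycin and the high-cycloheximide wells did not overlap for 428 features (8.53%), 264 of them higher with more rapamycin (5.26%) and 164 lower (3.27%). Final density moved with the ratio, and a fit with growth and density together called 12 features. In that fit the variance inflation of the ratio term was 5.41, against 1.28 with growth alone, so standard errors widened. Some changes kept most of their size there (CIT2 -3.25 ± 0.264 became -2.72 ± 0.535, OPI3 -2.46 ± 0.184 became -2.02 ± 0.371) and others shrank (HSP12 2.13 ± 0.327 became 0.60 ± 0.587, FIT2 -2.60 ± 0.337 became -0.67 ± 0.556). Density in place of growth called 162 features, of which 140 were among the 600. Inside the 6 high-rapamycin wells, with growth still a term, 46 features were called (26 rose, 20 fell), 35 of them among the 600. Density there rose and then fell along the ratio, so its part in these calls was not separated. Relative growth there was 0.432 in the first well and 0.361 in the sixth. Each change given inside these wells is therefore adjusted for growth and can differ from the course of the raw values. Inside the 8 high-cycloheximide wells limma called 0, with 304 at an unadjusted p under 0.05.

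The upstream sequences of 7 genes are given as examples, and several other members of their groups held fewer matches or none. Each is the 300 bases before the start codon on genome build R64, from RefSeq, written 5' to 3' on the coding strand, with matches on either strand to the 1 motif named beside that gene in capitals; matches to the other motifs are left in lower case, such as 1 to GATAAG in both CPA1 and SPL2, and 1 each to GTCAC and TGACTC in SPL2. The motifs were GATAAG (Gln3 and Gat1), GTCAC (Rtg1 and Rtg3), TGACTC (Gcn4), CACGTG (Pho4) and, for Leu3, CCGG, any 2 bases and CCGG. GTCAC and CACGTG can share bases, and neighbouring matches may overlap. GAP1, at chrXI:514763-515062 (plus strand), and DAL3, at chrIX:415618-415917 (minus strand), are examples of the nitrogen genes that fell, with 2 and 5 matches to GATAAG. CPS1 holds 2, and MEP2 and DAL5 hold 1 each. DLD3, at chrV:16055-16354 (plus strand), is an example of the retrograde genes, with 2 matches to GTCAC, where CIT2 and IDP1 hold 1 each and PYC1 holds 0. LEU1, at chrVII:478653-478952 (minus strand), holds 1 match to the Leu3 motif, as does BAT1, and OAC1 holds 0. MTD1, at chrXI:590095-590394 (plus strand), and CPA1, at chrXV:882599-882898 (plus strand), hold 2 and 1 matches to TGACTC and moved in opposite directions. SPL2, at chrVIII:375101-375400 (minus strand), holds 3 matches to CACGTG, where PHO5, PHO11 and PHO12 hold 1 each and PHO89 holds 0.
GAP1: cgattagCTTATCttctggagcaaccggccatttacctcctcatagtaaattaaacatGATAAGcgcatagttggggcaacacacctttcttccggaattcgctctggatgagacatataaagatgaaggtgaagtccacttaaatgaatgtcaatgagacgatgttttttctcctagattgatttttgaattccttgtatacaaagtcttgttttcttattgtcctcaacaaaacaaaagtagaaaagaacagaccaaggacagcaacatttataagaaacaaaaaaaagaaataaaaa
DAL3: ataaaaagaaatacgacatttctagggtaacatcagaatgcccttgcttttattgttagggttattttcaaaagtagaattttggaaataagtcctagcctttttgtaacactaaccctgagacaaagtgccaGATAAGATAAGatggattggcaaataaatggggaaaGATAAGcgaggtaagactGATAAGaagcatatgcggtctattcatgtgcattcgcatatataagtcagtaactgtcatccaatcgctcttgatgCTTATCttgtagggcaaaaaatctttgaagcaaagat
DLD3: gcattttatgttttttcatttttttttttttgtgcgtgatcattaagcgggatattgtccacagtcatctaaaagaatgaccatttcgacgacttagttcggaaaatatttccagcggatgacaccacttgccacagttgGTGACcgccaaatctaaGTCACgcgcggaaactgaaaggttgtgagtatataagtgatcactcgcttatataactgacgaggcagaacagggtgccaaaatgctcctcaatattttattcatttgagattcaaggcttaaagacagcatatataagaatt
LEU1: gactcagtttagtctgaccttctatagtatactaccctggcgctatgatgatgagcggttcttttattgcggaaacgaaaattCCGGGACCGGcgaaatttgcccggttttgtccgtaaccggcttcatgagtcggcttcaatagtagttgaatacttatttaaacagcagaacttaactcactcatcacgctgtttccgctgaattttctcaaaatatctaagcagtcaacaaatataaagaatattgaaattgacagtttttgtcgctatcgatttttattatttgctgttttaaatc
MTD1: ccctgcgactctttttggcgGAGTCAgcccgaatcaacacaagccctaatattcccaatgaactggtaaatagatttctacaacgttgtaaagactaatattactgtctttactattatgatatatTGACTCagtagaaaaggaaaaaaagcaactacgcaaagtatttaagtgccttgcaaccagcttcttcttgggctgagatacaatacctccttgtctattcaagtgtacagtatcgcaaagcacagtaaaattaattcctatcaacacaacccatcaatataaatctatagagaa
CPA1: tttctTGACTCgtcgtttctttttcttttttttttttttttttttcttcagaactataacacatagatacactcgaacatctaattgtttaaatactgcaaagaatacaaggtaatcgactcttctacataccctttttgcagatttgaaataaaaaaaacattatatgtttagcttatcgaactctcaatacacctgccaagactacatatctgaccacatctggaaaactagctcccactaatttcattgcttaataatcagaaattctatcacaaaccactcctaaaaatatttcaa
SPL2: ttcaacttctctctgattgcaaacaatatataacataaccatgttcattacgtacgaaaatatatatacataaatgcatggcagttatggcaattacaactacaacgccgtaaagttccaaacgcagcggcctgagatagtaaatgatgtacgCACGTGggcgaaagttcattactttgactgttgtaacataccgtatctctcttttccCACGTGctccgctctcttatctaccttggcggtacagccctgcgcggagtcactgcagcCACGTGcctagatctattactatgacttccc

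The motifs were not confined to genes that moved. Among 4732 tested features with an upstream window, GATAAG stood in 14.7%, against 22.9% of 288 that fell and 18.1% of 276 that rose. TGACTC stood in 7.92% of all, 17% of those that rose and 7.64% of those that fell. The Leu3 motif stood in 8 windows in all, 5 of them upstream of genes that rose. GTCAC stood in 25.7% of all, 24.7% of those that fell and 30.8% of those that rose, and CACGTG in 3.85%, 6.25% and 6.52%. These shares are descriptions, and a match is not a bound site.

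Genes of poor nitrogen moved in both directions. Of 28 tested genes of nitrogen catabolite repression, 10 fell toward cycloheximide, 4 rose and 14 were not called, with a median change of -0.09 against 0.02 over all features. Those that fell included GAP1 (general amino acid permease), MEP2 (ammonium permease), DAL3 and DAL5 (allantoin use) and CPS1 (vacuolar carboxypeptidase). GAP1 (XI:515063-516871) had values of 128.5 to 195.6 in the 6 high-rapamycin wells (median 165.7) and 25.4 to 36.3 in the 8 high-cycloheximide wells (median 31.4). The groups did not overlap, and the end-to-end change was -2.74 ± 0.235 (limma adjusted p = 2.45e-09). Inside the high-rapamycin wells its change was -0.44 (adjusted p = 0.468), which did not pass. The drop came in the next wells: at ratios of 6.95, 7.89, 10.2 and 13.1 GAP1 values were 85.4, 139, 38.96 and 42.2. Final density in those wells was 0.566, 0.4615, 0.67 and 0.5945, so the well of lowest density among them also had the highest GAP1 value. With final density added to the ratio fit the GAP1 change was -1.48 ± 0.404 (adjusted p = 0.0929), which did not pass.

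MEP2 ranged over 70.5 to 129.7 (median 87.3) in the high-rapamycin wells and 8.05 to 27.5 (median 16.8) in the high-cycloheximide wells, with an end-to-end change of -3.32 ± 0.306. DAL3 ranged over 41.03 to 52.2 against 2.81 to 10.8, a change of -3.44 ± 0.314. For both genes the groups lay far apart, and neither passed inside the high-rapamycin wells. In the high-cycloheximide wells a value of 9.83 to 13.2 stood for 10 reads. DAL3 there rested on about 10 reads or fewer, so the size of its fall is uncertain. DAL5 fell by 2.83 (SE 0.478) and CPS1 by 2.21 on the log2 scale. DAL5 was at 3.37 to 18.7 in the high-cycloheximide wells, so the size of its fall is uncertain too. With final density added its change was -0.93 ± 0.902 (limma adjusted p = 0.676), which did not pass. GDH3, a glutamate dehydrogenase gene of ammonium assimilation that was on no list, had 115.7 to 140.7 against 20.97 to 52.1, a change of -2.78 ± 0.217.

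Other nitrogen genes moved the opposite way. GDH2, the glutamate dehydrogenase that releases ammonium, had 72.2 to 108.3 (median 89.7) in the high-rapamycin wells and 117.6 to 213.1 (median 171.7) in the high-cycloheximide wells, a change of 1.41 ± 0.236 (adjusted p = 6.15e-05). DUR1,2, the urea amidolyase gene, ranged over 200.6 to 279.6 against 365.2 to 515.8 (1.34 ± 0.135), and the glutamine synthetase gene GLN1 over 358.2 to 493.7 against 586 to 666.5 (0.67 ± 0.111). None of these 3 overlapped between the groups. GAT1, which encodes one of the activators, rose by 0.89 ± 0.219 with overlapping groups, 30.7 to 50.4 against 43.5 to 71.5. Its upstream window holds 4 matches to GATAAG, and those of GDH2 and GLN1 hold 0.

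**Figure D2:**
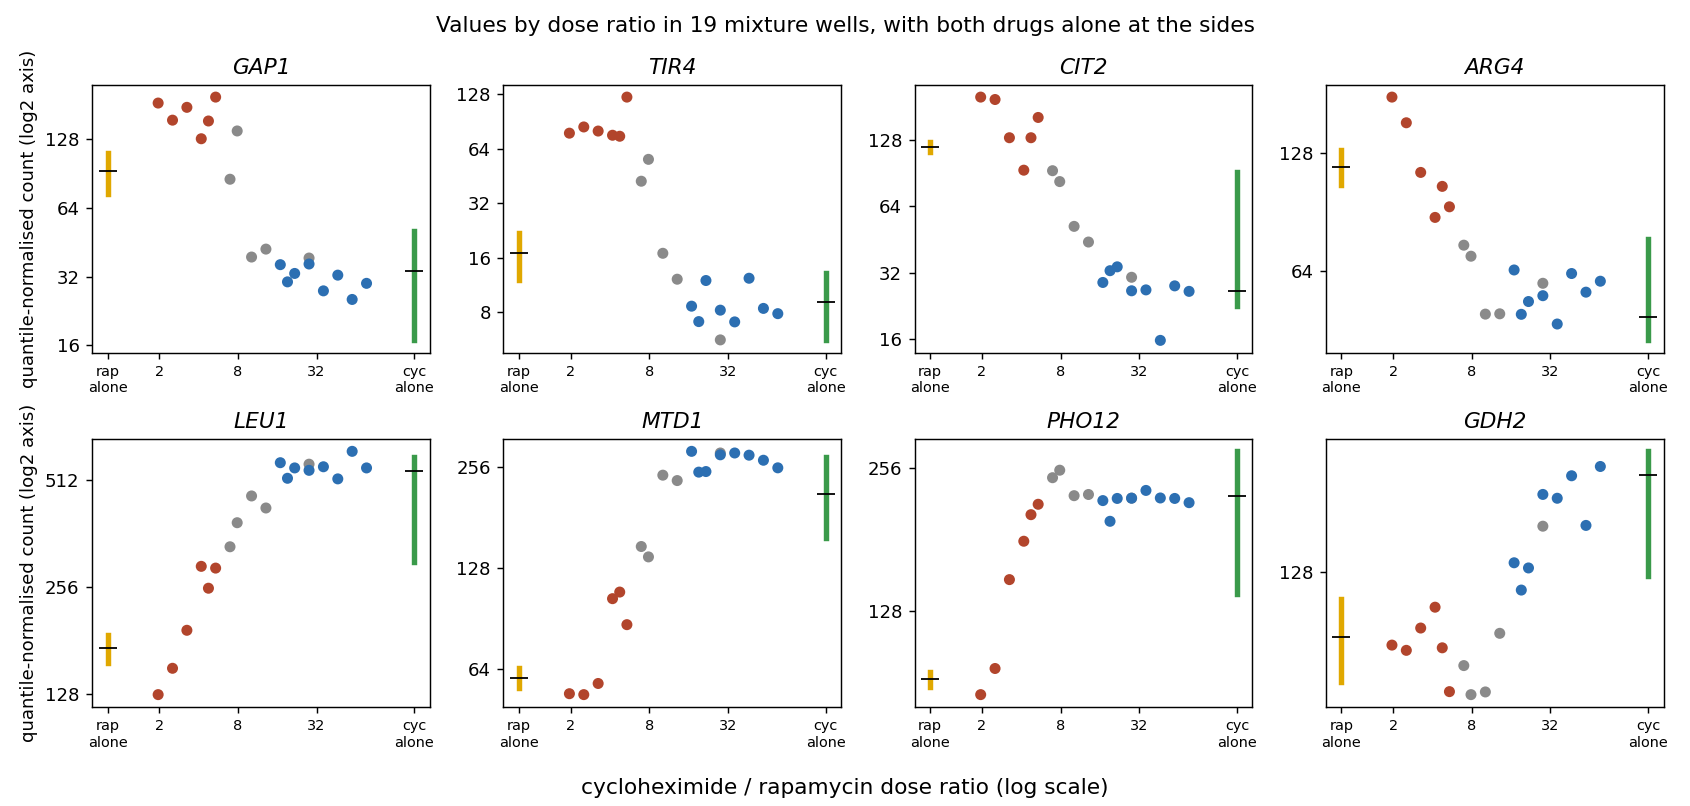
Quantile-normalised count (log2 axis) of 8 genes against the dose ratio in the 6 high-rapamycin wells (red), the 8 high-cycloheximide wells (blue) and the 5 other mixture wells (grey), with bars for the range and ticks for the median of the 2 wells with rapamycin alone (yellow) and the 7 with cycloheximide alone (green). GAP1 and TIR4 were near level among the red wells and dropped in the grey ones, and LEU1 and PHO12 already climbed among the red wells.

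Of 12 tested genes of the retrograde response, 6 fell, 1 rose (the isocitrate dehydrogenase gene IDH1, 0.82 ± 0.162) and 5 were not called, with a median of -0.44. CIT2, the peroxisomal citrate synthase (III:120946-122328), was at 93.5 to 200.8 in the high-rapamycin wells (median 146.8) and 15.8 to 34.04 in the high-cycloheximide wells (median 27.3), a change of -3.25 ± 0.264 (adjusted p = 7.11e-10). DLD3, a lactate dehydrogenase (V:16355-17845), was at 175.7 to 410.7 against 49.9 to 84.8 (-3.07 ± 0.245), and for the pyruvate carboxylase gene PYC1 the medians were 245.9 and 65.8 (-2.45 ± 0.190). IDP1, a mitochondrial isocitrate dehydrogenase, fell by 1.20. Unlike GAP1, all 3 of CIT2, DLD3 and PYC1 were also called inside the high-rapamycin wells, where growth was a term in the fit. The growth-adjusted changes were -1.41 ± 0.198, -1.59 ± 0.197 and -0.84 ± 0.179 (limma adjusted p = 0.000648, 0.000149 and 0.022). The raw values there did not decline evenly: DLD3 read 410.7, 408.7, 218.6, 175.7, 280.5 and 351.3 as cycloheximide rose, lowest in the fourth well. CIT2 went from 200.8 in the first well to 93.5 in the fourth and back to 162.3 in the sixth. PYC1 was also lowest in the fourth well, with 283.1 in the first and 254.6 in the sixth. How much of the 3 fitted changes came from the growth term was not tested.

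Mannoprotein genes of the TIR group that fell were TIR4, TIR1 and TIR3. TIR4, a mannoprotein gene of cold shock and low oxygen (XV:344335-345798), had 74.8 to 123 (median 78.9) in the high-rapamycin wells and 7.10 to 12.3 (median 8.33) in the high-cycloheximide wells, and its change of -3.78 ± 0.435 (limma adjusted p = 2.78e-07) was the greatest fall among the 5015 features. In the high-cycloheximide wells TIR4 rested on about 10 reads or fewer (a value of 9.83 to 13.2 stood for 10 reads), so the size of its fall is uncertain. Its values with rapamycin alone were 12.1 and 21.8, below all 6 high-rapamycin mixtures, and 5.62 to 13.2 with cycloheximide alone. Across the series, wells above the highest of these mixtures occurred only among the 16 with myriocin and rapamycin, where TIR4 ranged from 11.5 to 355.2. TIR1 fell by 2.99, TIR3 by 1.69 and ANB1, a form of translation factor eIF5A made at low oxygen, by 2.13. With final density added, TIR4, TIR1 and TIR3 had -1.88, -1.95 and -0.85, and none passed (limma adjusted p = 0.269, 0.164 and 0.557). On a list of 14 hypoxic and cold-shock genes drawn up after the values were seen, 6 of 7 tested fell and 0 rose.

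Iron, lipid and metal genes changed in part. FIT3 and FIT2, mannoproteins that retain iron siderophores in the wall, were at 240.7 to 357.1 against 47.5 to 72.8 and 153.5 to 218.6 against 26.8 to 44.4, with changes of -3.03 ± 0.264 and -2.60 ± 0.337. On the iron uptake list 3 of 20 fell and 3 rose, among the latter ISU2, the iron-sulphur scaffold, by 1.76 ± 0.236. Of 15 tested inositol and phospholipid genes 4 fell and 0 rose: OPI3, a methyltransferase of phosphatidylcholine synthesis, was at 313.4 to 432.1 against 82.6 to 138.7 (-2.46 ± 0.184), and the inositol transporter gene ITR1 fell by 1.66. Of 27 ergosterol genes 6 fell and 0 rose, ERG25 by 1.01. The zinc transporter gene ZRT1 fell by 1.28. The metallothionein copies CUP1-1 and CUP1-2 have identical values and cannot be told apart; they were called higher (1.04 ± 0.304), but their highest value, 3050, was in the second high-rapamycin well, against 1032 to 1367 in the other 5.

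**Figure D3:**
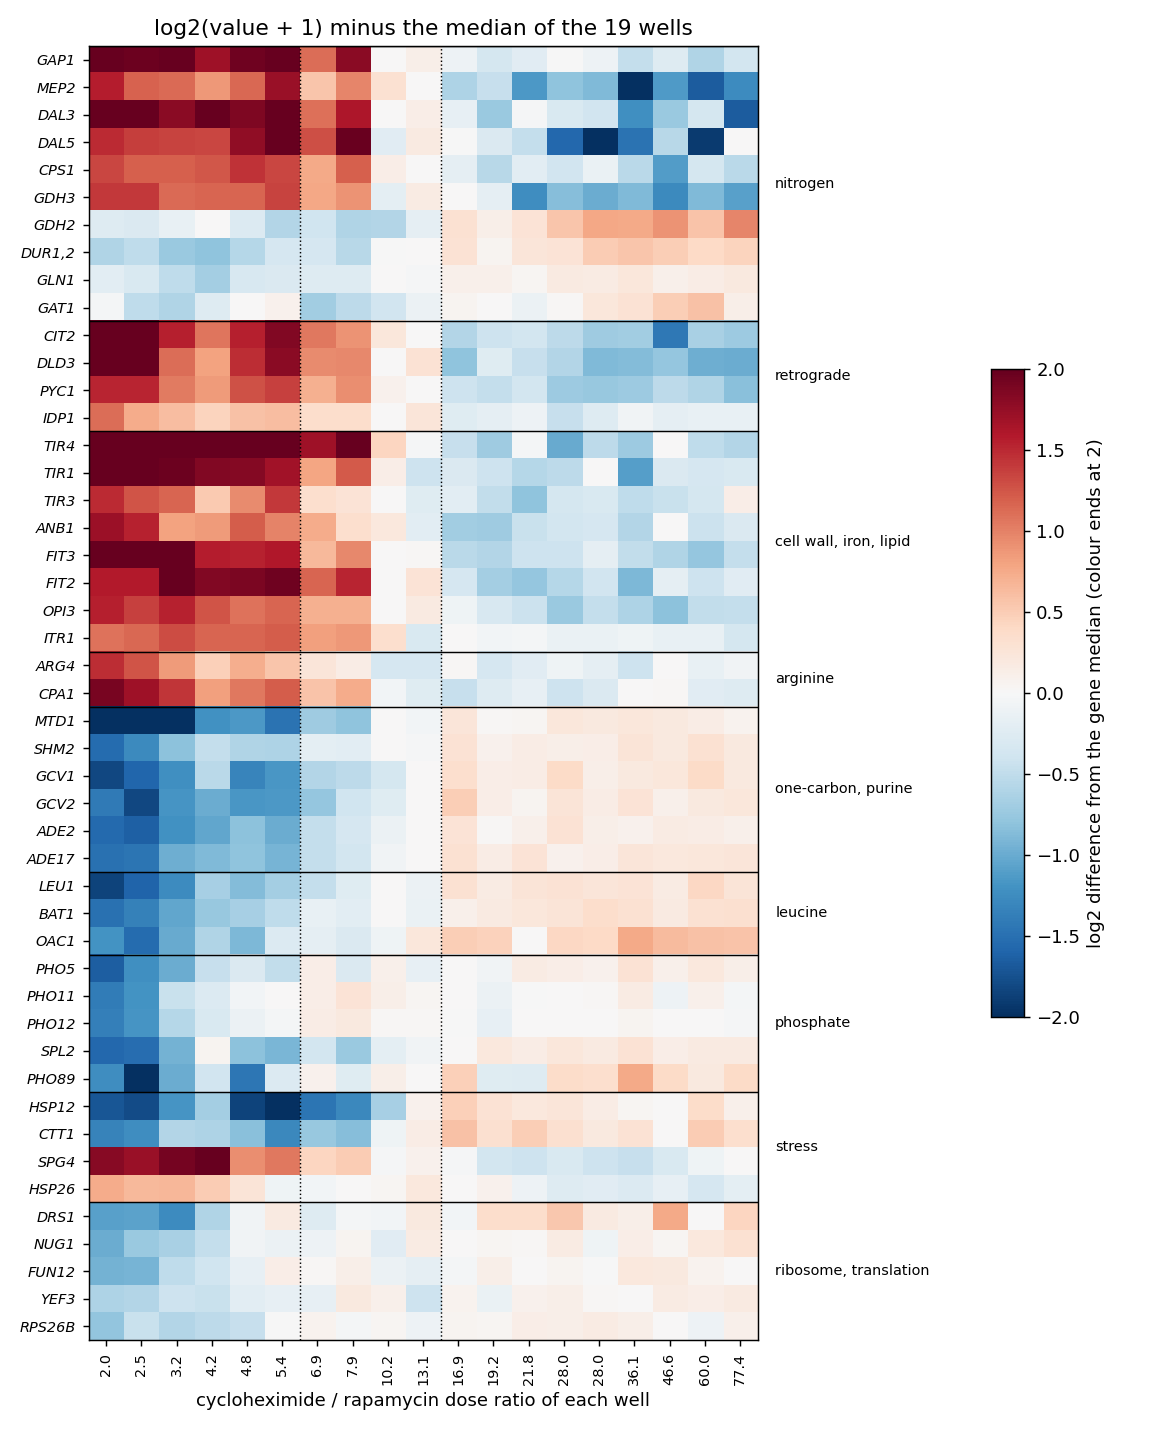
Difference of log2(value + 1) from each gene's median over the 19 mixture wells (colour, ends at 2 log2 units) for 47 named genes, wells in order of dose ratio, with dotted lines after the 6 high-rapamycin wells and 4 wells later. Nitrogen permease, retrograde, TIR and FIT genes are high on the left, and one-carbon, leucine and phosphate genes are high on the right.

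Amino acid synthesis moved in both directions. Of 61 tested enzymes under general amino acid control (driven by Gcn4), 15 rose, 5 fell and 41 were not called, with a median of 0.31. Genes of the leucine branch were among those that rose. LEU1, isopropylmalate isomerase (VII:476313-478652), read 127.2, 150.9, 193.1, 292.4, 253.7 and 289.1 in the high-rapamycin wells as cycloheximide rose and 515.8 to 616.7 in the high-cycloheximide wells (median 553.8), a change of 2.07 ± 0.217 (adjusted p = 8.35e-08). BAT1, the mitochondrial branched-chain aminotransferase, rose by 1.75 ± 0.177 and OAC1, a mitochondrial carrier of oxaloacetate and isopropylmalate, by 2.11 ± 0.223. BAT2, on the same list as BAT1, was called lower. Inside the high-rapamycin wells LEU1 rose by 1.47 ± 0.183 and BAT1 by 1.03 ± 0.164 (adjusted p = 0.000149 and 0.00277), and OAC1 did not pass (0.92, adjusted p = 0.444).

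Genes of arginine synthesis were among those that fell. CPA1, carbamoyl phosphate synthetase (XV:882899-884134), read 146.1, 126.5, 105.5, 68.7, 81.4 and 90.2 in the high-rapamycin wells and 27.8 to 39.3 in the high-cycloheximide wells (-2.003 ± 0.275). ARG4, argininosuccinate lyase, had a median of 109.9 in the high-rapamycin wells and 46.99 to 64.5 in the high-cycloheximide wells (-1.31 ± 0.240). Both were called inside the high-rapamycin wells (-1.32 ± 0.226 and -1.22 ± 0.215). GCN4 itself had medians of 711.4 and 524 without overlap, but its change of -0.52 ± 0.0923 is under 1.5-fold and was not called. On an arginine list drawn up after the values were seen 2 of 8 tested genes fell and 0 rose, and 3 fell inside the high-rapamycin wells.

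A list of one-carbon, glycine and purine genes was drawn up after the values were seen, so its counts only describe it: 13 of 19 rose, 6 were not called and 0 fell, with a median of 1.16, and 7 were also called higher inside the high-rapamycin wells. MTD1, the cytosolic methylenetetrahydrofolate dehydrogenase (XI:590395-591357), was at 53.5 to 108.3 in the high-rapamycin wells (median 72.2) and 246.9 to 284.8 in the high-cycloheximide wells (median 272.6), a change of 2.39 ± 0.264 (adjusted p = 1.64e-07). The glycine cleavage genes GCV1 and GCV2 rose by 2.10 ± 0.227 and 2.01 ± 0.229. SHM2, serine hydroxymethyltransferase, rose by 1.56 and the purine synthesis genes ADE2 and ADE17 by 1.83 and 1.75; these 3 were named after their values were seen. SER3, a gene of the first step of serine synthesis, moved the other way, at 200.6 to 265.4 against 100.9 to 162.4 (-1.34 ± 0.152). SER1, SER2 and SER33, on the list under general amino acid control, were called higher. Of 19 tested genes of amino acid breakdown 9 rose and 2 fell (median 0.75), with the aromatic aminotransferase gene ARO9 at 15.1 to 38.4 against 52.9 to 75.8 (2.05 ± 0.251).

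Of 20 tested phosphate starvation genes, 9 rose, 1 fell and 10 were not called over the whole axis (median 0.56), and 4 rose inside the high-rapamycin wells, where PHO89 did not pass. The gene that fell was CTF19, a kinetochore gene on that list. PHO12, an acid phosphatase (VIII:552099-553502), read 85.04, 96.6, 148.9, 179.5, 204.3 and 214.9 in the high-rapamycin wells, 244.6 and 253.7 at ratios of 6.95 and 7.89, and 197.8 to 229.9 in the high-cycloheximide wells. PHO11 is a near-identical copy that may share reads with PHO12. PHO5, the major acid phosphatase, rose by 1.42 ± 0.227, SPL2, which restrains low-affinity phosphate uptake, by 1.53 ± 0.233, and the sodium-phosphate cotransporter gene PHO89 by 1.997 ± 0.384. PHO89 was at 4.50 to 23.4 in the high-rapamycin wells, where a value of 6.26 to 11.9 stood for 10 reads, so the size of its rise is uncertain. Inside the high-rapamycin wells PHO12, PHO5 and SPL2 rose by 1.60 ± 0.191, 1.55 ± 0.218 and 1.92 ± 0.316. SPL2 was uneven there, with 129.8 in the fourth well and 70.3 and 65.3 in the next 2.

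Ribosome assembly genes rose in 33 of 115 cases and fell in 0 (median 0.56). For 0 of the 115 did all high-cycloheximide wells lie above all high-rapamycin wells, against 3.27% of all features. Inside the high-rapamycin wells 0 were called. The summed values of the list overlapped, at 3701 to 6935 in the high-rapamycin wells and 4647 to 5894 in the high-cycloheximide wells. Of 138 cytosolic ribosomal protein genes 6 rose and 0 fell (median 0.23), a share below the 5.92% of all features that rose. Of 45 translation factor genes 7 rose and 2 fell (median 0.22). DRS1, a helicase of large subunit assembly, was at 21.2 to 58.99 against 49.96 to 88.4 (1.64 ± 0.259), and NUG1, a GTPase of subunit export, at 27.7 to 53.4 against 52.9 to 69.3 (1.13 ± 0.169); for both, the groups overlapped. The initiation factor gene FUN12 read 291.4, 293.5, 394.3, 423.9, 499 and 610.5 in the high-rapamycin wells, a rise of 0.92 ± 0.156 there, and rose by 0.98 ± 0.165 over the whole axis. The elongation factor gene YEF3 rose by 0.80 ± 0.121. RPS26B rose by 0.76 ± 0.148, a call that was lost without the well of the lowest ratio. SOF1, of rRNA processing, rose by 2.18 ± 0.341 and PUF6, of large subunit assembly, by 1.98 ± 0.285, but SOF1 had values of 5.38 to 25.1 where a value of 6.26 to 13.5 stands for 10 reads. Of 29 RNA polymerase I and III genes 2 rose, of 68 mitochondrial ribosomal protein genes 1 rose and of 36 proteasome genes 1 rose, with 0 lower in each. These shares were near or below the 5.92% of all features.

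**Figure D4:**
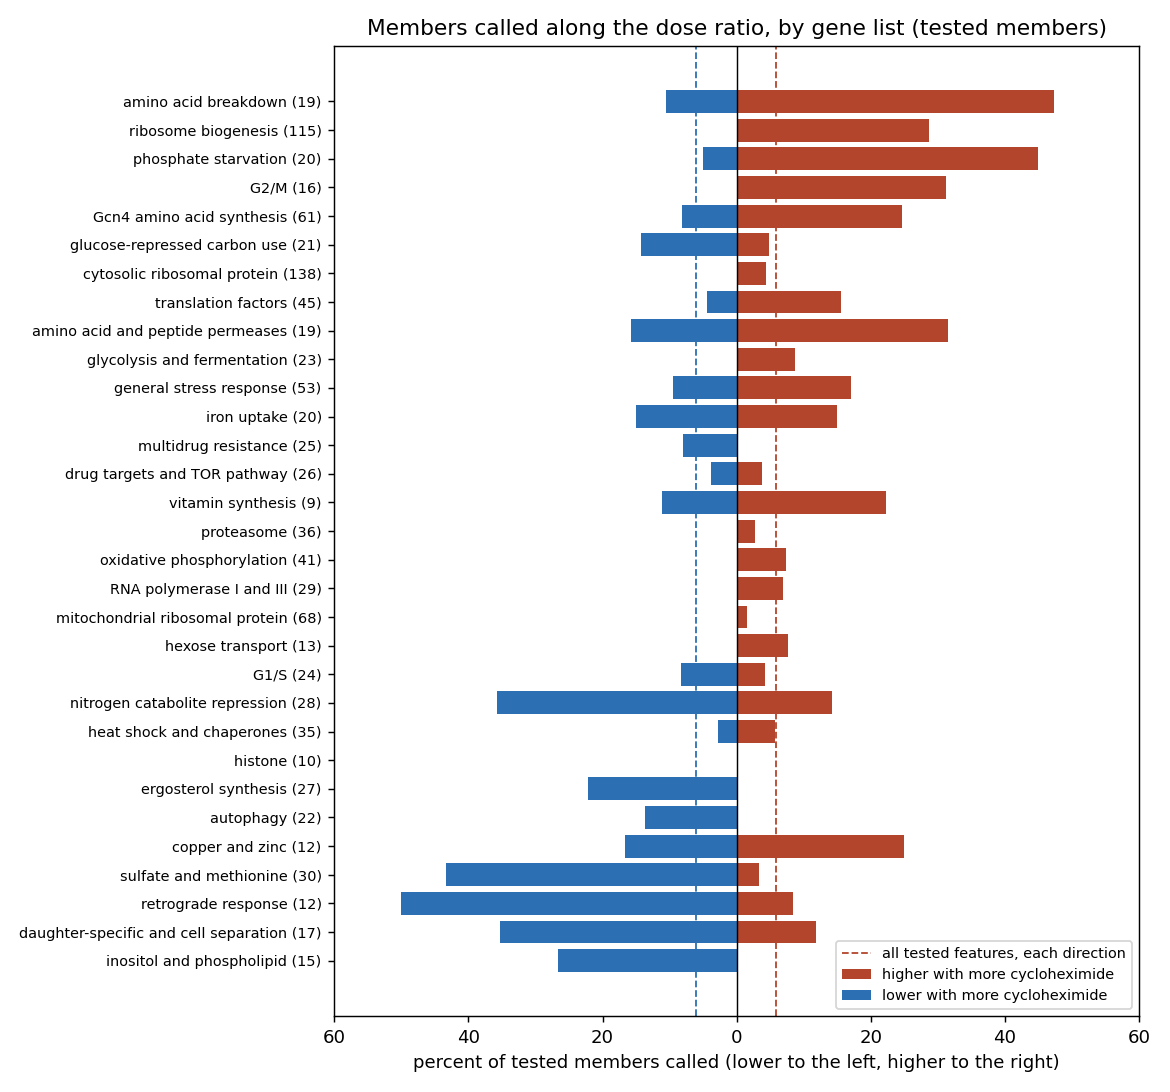
Percent of the tested members of each gene list that were called along the dose ratio, higher and lower, with dashed lines at the share over all tested features, 5.92% higher and 6.04% lower. Ribosome biogenesis and phosphate lie mostly on the higher side, retrograde and sulfate genes mostly on the lower side, and nitrogen catabolite repression extends both ways.

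Of 30 sulfate and methionine genes 13 fell and 1 rose (median -0.44). SAM2, an S-adenosylmethionine synthetase, fell by 1.80, SAH1, S-adenosylhomocysteine hydrolase, by 1.10 and STR3, a cystathionine beta-lyase, by 1.36, while the homocysteine methyltransferase gene SAM4 rose by 1.14. Of 53 general stress genes 9 rose and 5 fell. HSP12, a membrane chaperone (VI:107256-107585), was at 119.9 to 325.3 against 522.8 to 723.9 (2.13 ± 0.327), and CTT1, a catalase, had medians of 96.5 and 246.9 (1.62 ± 0.231). HSP26 fell by 1.07 and SPG4, a gene of stationary phase, by 2.39. HSP12 had its highest value among the high-rapamycin wells in the fourth, where HXT2, a glucose transporter gene named after its values were seen, also peaked (565.1 against 136.7 to 368.2 in the other 5).

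HXT1, the low-affinity glucose transporter, rose by 1.99 ± 0.384 and the cell wall gene HPF1 by 2.06 ± 0.251. Among 17 genes of daughter cells and septum breakdown, 6 fell and 2 rose, with the glucanase gene DSE4 at -1.07. Of 16 G2/M genes 5 rose and 0 fell. The polyamine exporter gene TPO2 fell by 1.34. Of 10 histone genes limma called 0, and of 35 heat shock genes 2 rose and 1 fell. CLN3, CYC1, SSA3 and FET3 (called higher) and EPT1 (called lower) lost their call in 7, 7, 13, 2 and 7 of the 19 fits that left out 1 well.

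Curvature was called for 60 features (1.20%): 32 were bowed upward (0.638%) and 28 downward (0.558%), where the bow is the height of the fitted curve above its chord at mid-axis. Of the 600 features with a slope, 89 had a quadratic term with an adjusted p under 0.05, and 40 of them reached the fold minimum for a called bow. FUN12 (bow 0.53 ± 0.0881, adjusted p = 0.000576) is one that did not reach it. The 40 comprised 25 that rose with an upward bow and 15 that fell with a downward bow, that is, their fitted curves were steepest at the rapamycin-rich end. For 39 of these 40 the curve turned inside the axis, at ratios of 21.3 to 55.6 (median 33.8). LEU1 had a bow of 0.82 ± 0.0799, MTD1 of 0.95 ± 0.114, ISU2 of 0.70 ± 0.139, ARG4 of -0.84 ± 0.111 and CPA1 of -0.88 ± 0.149. GAP1, MEP2 and DAL3 had bows of -0.40, 0.11 and -0.06 that did not pass. The GAP1 drop lay in the middle of the axis, a shape that a parabola does not describe. MEP2 and DAL3 dropped there too, with further changes of -0.87 and -0.95 inside the high-cycloheximide wells that did not pass.

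A bow without a slope was called for 20 features, with the turn at ratios of 11.3 to 20.3. NOP14, of small subunit assembly, was at 7.22 to 24.1 and 16.6 to 26.8 in the high-rapamycin and high-cycloheximide wells and 19.4 to 28.5 in the 5 others (bow 0.87 ± 0.219). OTU2 had its highest value, 23.8, at a ratio of 21.8 (bow 1.14 ± 0.308), where the meiotic gene REC107 had its lowest, 6.93 (-1.03 ± 0.230). BDS1, a sulfatase gene, had a bow of -0.87 ± 0.237. These 4 genes had low values. The bows of BDS1, NOP14, OTU2, REC107, SPG4, TIR1 and TIR3 were each lost without the well of the highest ratio, which lowered the count to 34. Those of NCL1 (an RNA methyltransferase, 0.83 ± 0.187), PHO11, PHO12 (0.82 ± 0.118), ANB1, ARG4, CPA1, LEU1 and MTD1 passed in all 19 fits that left out 1 well.

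Because the path turned a corner, both doses could be fitted together with growth. With the rapamycin dose as a term, 523 features changed over the cycloheximide range (10.4%): 290 rose (5.78%) and 233 fell (4.65%). With the cycloheximide dose as a term, 12 changed over the rapamycin range (0.239%): 9 rose with rapamycin (0.179%) and 3 fell (0.0598%). Of the phosphate list 13 rose and 0 fell with the cycloheximide dose. Adding final density left 521 calls for cycloheximide, 336 of them shared, and 0 for rapamycin (limma; 271 at an unadjusted p under 0.05). LEU1 (2.17 ± 0.117), PHO12 (1.61 ± 0.188), ARG4 (-1.81 ± 0.171) and CIT2 (-2.27 ± 0.294) were called for the cycloheximide dose, and with density in the fit their changes were 2.02, 1.99, -1.93 and -2.08 (adjusted p = 1.13e-09, 1.18e-06, 2.15e-06 and 0.000748). GAP1 had -1.93 ± 0.264, and -1.25 with density (adjusted p = 0.00638). TIR4 had -2.81 ± 0.504, and -1.79 with density, which did not pass (adjusted p = 0.0578). Inside the 6 high-rapamycin wells, where cycloheximide rose at 1 rapamycin dose, neither GAP1 nor TIR4 passed. Their changes there were -0.44 and -0.22 (limma adjusted p = 0.468 and 0.805). Both genes dropped in the wells where the 2 doses changed together. The cycloheximide count was 335 without the well of the lowest ratio.

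Calls for the rapamycin dose included MEP2 (2.05 ± 0.353), DAL3 (1.76 ± 0.368), GDH3 (1.49 ± 0.252), DLD3 (1.27 ± 0.268), VBA1, a vacuolar permease for basic amino acids (1.27 ± 0.270), SER3 (1.06 ± 0.160), PYC1 (0.96 ± 0.201) and OPI3 (0.84 ± 0.181), all higher with more rapamycin. GDH2 (-1.48 ± 0.226), BTN2, of protein sorting under stress (-1.05 ± 0.187), and DUR1,2 (-0.71 ± 0.155) were lower. SER3 and GDH2 were not called for the cycloheximide dose (-0.28 and -0.10). The count rested on single wells: it was 5 or 6 without any one of wells 1, 2, 5, 7, 8, 9, 10 or 16 in order of ratio, and 20 without well 11. Calls of MEP2, DAL3, DLD3, VBA1 and DUR1,2 were each lost in at least 1 of these fits, and those of SER3, GDH2, GDH3 and BTN2 in none. PYC1 and OPI3 were not followed singly; without well 9, 3 calls higher with rapamycin remained, SER3 and GDH3 among them, so at least 1 of PYC1 and OPI3 was lost there.

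The mixtures were set beside the drugs alone, in wells that the ratio fit did not use. Cycloheximide alone minus rapamycin alone gave 250 called features (4.99%), 150 higher (2.99%) and 100 lower (1.99%). Of the 297 features that rose along the ratio 89.6% were positive in that difference, where 47.2% of all features were, and 101 were called. Of the 303 that fell 95.4% were negative, where 52.8% of all were, 82 were called lower and 1, DIA1, was called higher. The shared calls are 73.2% of the single-drug calls and 30.5% of the ratio calls. LEU1 had 301.5 to 592.9 with cycloheximide alone and 156.4 and 187.2 with rapamycin alone, a difference of 1.51 ± 0.173, and CIT2 had 22.6 to 91.97 against 113.1 and 125.4 (-1.82 ± 0.412). GAP1 had 16.8 to 50.6 against 73.3 and 111.6 (-1.44 ± 0.334), so that all 6 high-rapamycin mixtures lay above both wells with rapamycin alone. The same held for MEP2, DAL3 and FIT2, and only narrowly for OPI3 (lowest mixture 313.4, against 312.1 and 312.5 with rapamycin alone). The high-rapamycin mixtures had a higher rapamycin dose (6.62 against 5.83 ng/ml) and lower growth. TIR4 did not pass between the drugs alone (-0.74, adjusted p = 0.309), nor did TIR3, TPO2 or ERG25. The count rests on the 2 rapamycin wells, at 118 and 27 when either was left out, and was 465 without the shallowest cycloheximide well (87959 reads).

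Slopes were compared with those of the other pairs, each per SD of its own log dose ratio. Against the mean of both other rapamycin pairs 18 features differed (0.359%), 9 each way (0.179%), and against the mean of both other cycloheximide pairs 36 (0.718%), 27 of them lower (0.538%). GAP1 had a slope of -0.82 here, of -0.74 and -0.63 in the rapamycin pairs with LiCl and myriocin, and of 0.22 and 0.25 in the cycloheximide pairs with LiCl and myriocin. Its difference from the cycloheximide pairs was -1.05 ± 0.165 (adjusted p = 7.4e-07) and that from the rapamycin pairs -0.13 ± 0.185, which did not pass. MEP2, DAL3, CIT2, DLD3, FIT3, FIT2, GDH3, OPI3 and SER3 likewise were called against the cycloheximide pairs (-0.63 to -1.12) and not against the rapamycin pairs, although CIT2 differed from those by -0.42 ± 0.102 (adjusted p = 0.00329) and missed the call by the fold minimum. In the other direction, SPL2 (0.85 ± 0.116), OAC1 (0.76 ± 0.177), GCV2 (0.71 ± 0.109) and PHO89 (0.68 ± 0.197) had slopes above those of the other rapamycin pairs and were not called against the cycloheximide pairs. TIR4 and TIR1 were called against both, TIR4 by -0.87 ± 0.241 and -1.21 ± 0.214. The pairs differ in their dose paths and depths.

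**Figure D5:**
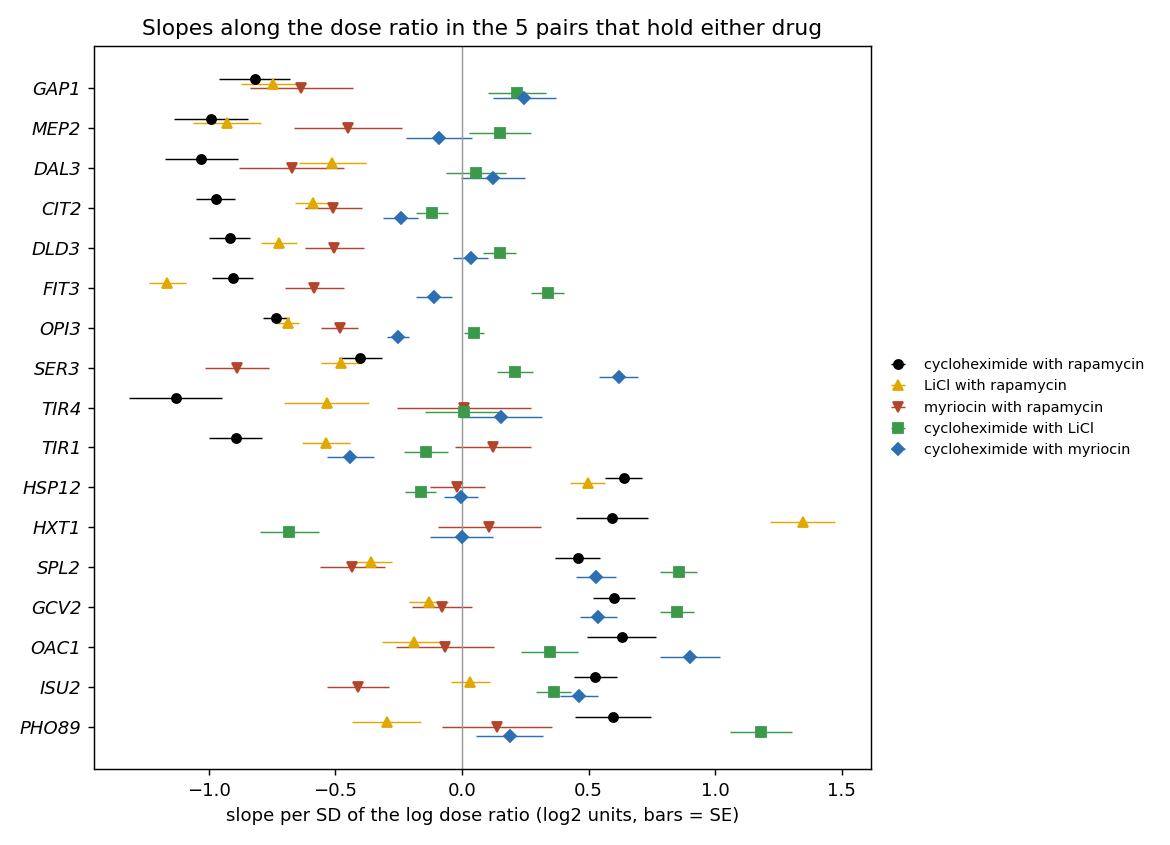
Slope per SD of the log dose ratio (log2 units, bars are SE) of 17 genes in the 5 pairs that hold cycloheximide or rapamycin; a positive slope is away from rapamycin in its pairs and toward cycloheximide in the other 2. GAP1 is at -0.82 here and above 0 in the cycloheximide pairs with LiCl and myriocin, and TIR4 is lowest in cycloheximide with rapamycin.

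The genes of the drug targets moved little. RPL28, which encodes the ribosomal protein altered in cycloheximide-resistant mutants, had a ratio change of 0.31 ± 0.0910, TOR1 of 0.08 ± 0.177, FPR1 of -0.38 ± 0.0817 and the drug pump gene PDR5 of 0.26 ± 0.137, and none reached 1.5-fold. PDR5 rose with the cycloheximide dose (0.62 ± 0.134), a call lost without the well of the lowest ratio. The strain label matched its markers in the 19 wells: LEU2, MET17 and URA3, deleted in BY4741, were at most 0.0209, the MATa genes MFA1 and STE2 were at 201.4 to 295.9 and 116.7 to 155.8, and none of the 4 MATalpha genes passed the filter on low values. Of those, MF(ALPHA)1 was at most 1.28 and STE3 at most 3.01, while MF(ALPHA)2 was at 3.88 to 15.4 and SAG1 at 2.81 to 10.1, in the range of the lowest MATa gene, ASG7 (7.10 to 23.3). HIS3, also deleted in part in BY4741, was at 15.4 to 34.8.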

How the data were processed

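The authors deposited quantile-normalised counts, a signal that is the same distribution in every library (largest value 17026.2 in all 238 columns). Per the labels' protocols, poly(A)-selected RNA fragments were copied with barcoded poly(T) primers carrying a molecular identifier of 4 bases, and reads were single-end, 50 bp. TopHat, UMI-tools, featureCounts and build R64 are named in the submitters' processing notes. Tool versions and the strand setting were not stated there, so reads of overlapping or antisense genes cannot be told apart. Quantile normalisation makes every change relative to the other genes. Depth was estimated from the step between low values.

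Here limma 3.58.1 in R 4.3.3, with a mean-variance trend, was fitted on log2(value + 1) of 5015 of 6717 features whose mean over all libraries was at least 10, with Benjamini-Hochberg adjustment over all of them. A call needed an adjusted p under 0.05 and 1.5-fold over the axis. Relative growth was a term in the mixture fits; the single-drug fit had a term for the drug-free growth rate to which wells were scaled. Of the features, 6025 matched RefSeq R64. Genes were named as the largest called changes, the called list members of smallest adjusted p and 8 fixed genes; 4 named genes (SHM2, ADE2, ADE17 and HXT2) fall outside that rule. Members and lists were chosen with earlier results of these data known. The fits were tested on simulated data. Alternatives were other pseudocounts, filters, weights, scaling, covariates, axes and left-out wells.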

Additional observations from a re-analysis of the deposited data

Results flagged for a closer look

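Among 13 quantities checked over the 7 wells with cycloheximide alone, 5 had 1 well far from the others; chance gives this for about 1 in 20 groups. CIT2 and ARG4 had a highest well of 91.97 and 77.5, LEU1 a lowest well of 301.5, final optical density a highest value of 0.787, and depth a lowest value of 87959 reads. All 13 quantities come from the same 7 wells, so the flags are not independent. The value 91.97 was also the highest of PYC1 and the lowest of GCV2 in this group. Whether the well of 87959 reads gave several of the flags was not tested.

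For the following genes the slope along the ratio differed from that of other drug pairs (limma, per SD of the log ratio). Against the other cycloheximide pairs the difference was 0.72 for HSP12, 0.94 for HXT1, -1.21 for TIR4, -1.12 for DAL3, -1.02 for MEP2, -0.79 for CIT2, -1.01 for DLD3, -1.02 for FIT3, -0.60 for TIR1, -0.87 for DAL5, -0.67 for GDH3, -1.05 for GAP1, -0.96 for FIT2, -0.63 for OPI3, -0.77 for SPG4, -0.65 for ANB1, -0.81 for SER3, -0.67 for CPS1, -0.75 for SAM2 and -0.73 for STR3. Against the other rapamycin pairs it was 0.76 for OAC1, 0.71 for GCV2, 0.68 for PHO89, -0.87 for TIR4, -0.69 for TIR1, 0.85 for SPL2 and 0.72 for ISU2.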

How the results depend on the processing

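The 600 ratio calls became 12 with growth and final density as terms (variance inflation of the ratio 5.41 against 1.28; MTD1 2.39 became 1.90 ± 0.538 and DAL3 -3.44 became -2.85 ± 0.644, neither passing), 162 with density in place of growth (an alternative chosen after seeing the data), 46 in the 6 high-rapamycin wells and 0 in the 8 high-cycloheximide wells (limma; 304 at an unadjusted p under 0.05); fewer wells entered the last 2. Leaving out single wells gave 408 to 654 ratio calls, 34 to 61 bows, 335 to 547 cycloheximide dose calls, 5 to 20 rapamycin dose calls and 27 to 465 single-drug calls. The 60 bows became 32 with a pseudocount of 10 and 26 without both end wells. The 12 rapamycin dose calls became 5 with no filter and 0 with density as a term (limma; 271 at an unadjusted p under 0.05), and the 250 single-drug calls became 449 with quality weights. The 18 differences from other rapamycin pairs became 6 with a pseudocount of 10 and 11 with no growth term, and the 36 from other cycloheximide pairs became 19 with a pseudocount of 10. Other settings moved these counts by less than 1.5 times, and the cause of the changes was not tested.

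Signs turned for named genes mainly in the part-axis fits. In the high-rapamycin wells HXT1 had -0.39, FIT2 0.50, DUR1,2 -0.31, GLN1 -0.46, CPS1 0.0652, SER3 0.18, SAM4 -0.00984, STR3 0.31, SAM2 0.49, BTN2 -0.66, SPG4 0.14, CUP1-1 and CUP1-2 -1.315, ZRT1 0.0288 and ITR1 0.10. In the high-cycloheximide wells HSP12 had -0.18, GCV2 -0.0470, HXT1 -0.37, TIR1 0.0264, FIT2 0.33, IDP1 0.0537, RPS26B -0.0799, ANB1 0.38, CPA1 0.15, ARG4 0.11, SAM4 -0.0384, SAH1 0.11, CTT1 -0.13 and SPG4 0.24. With density added, CUP1-1 and CUP1-2 had -0.14. None of these turned values passed its test. No well was shallow enough for the planned fit without the lowest depths. No paired analysis was possible because the labels give the wells no replicate numbers.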
